A study of Mus musculus with 15 samples.

Results

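The genes examined here encode the machinery that holds calcium in the endoplasmic reticulum, releases it and refills it. They were the rows of the deposited table whose symbol is Ryr1, Ryr2, Ryr3, Itpr1, Itpr2, Itpr3, Atp2a2, Atp2a3, Stim1 or Orai1, which are 10 of its 38283 genes. RNA was sequenced from 15 samples of sorted islet cells of C57BL/6 mice. Glu-Venus mice, in which the proglucagon promoter drives the Venus fluorophore, gave the alpha cells (n = 5) and the beta cells (n = 4). The beta cells were gated among Venus-negative cells, using scatter and autofluorescence. Whether alpha and beta samples share mice is not given in the sources used here. The delta cells (n = 6) came from mice labelled Sst-CreXROSA26EYFP/EYFP, in which the somatostatin promoter drives Cre and Cre turns on EYFP. No group carries a treatment, and age and sex are not given in the sources used here. Each sample pools the islets of several mice, so the error given is that between pools. Cell type and mouse line cannot be told apart for delta cells.

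The endoplasmic reticulum is the main releasable calcium store of a cell. SERCA pumps fill it, and IP3 receptors and ryanodine receptors empty it into the cytosol when they open. IP3 receptors open when receptors coupled to phospholipase C make IP3, whereas ryanodine receptors open mainly in response to calcium itself. When the store runs low, STIM1 in its membrane senses the fall and opens ORAI1 in the plasma membrane, which is called store-operated entry. In islet cells these stores shape the calcium signal that triggers hormone release.

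Values are FPKM, that is, fragments corrected for the length of the transcript and for the number of mapped reads. Differences are of mean log2(FPKM + 1), tested with limma in one fit of all 15 samples over the 14405 genes with a mean above 1 FPKM in at least 1 cell type. A call is a Benjamini-Hochberg adjusted p under 0.05 over those genes. This scale understates the changes of genes with low values, and the 3 comparisons share samples. Of the 10 genes, 8 were tested, and Ryr1 and Ryr2 were below the limit.

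As a check of the labels, Gcg was at 184426 FPKM or more in every alpha cell sample and at most 1817 in any other sample. Ins2 was at 91248 FPKM or more in beta cells and at most 9094 elsewhere. Sst was at 101492 FPKM or more in delta cells and at most 2427 elsewhere. Ppy, the hormone of a further islet cell type, was at 17728 to 41392 FPKM in alpha and 10857 to 48600 in delta cells, but at 16.9 to 98.1 in beta cells. The samples also differed in a way that crosses the cell types. Summed over 85 ribosomal protein genes, FPKM lay between 65611 and 140979 in 6 samples (alpha 1 to 3, beta 2, delta 1 and 2) and between 7919 and 38775 in the other 9, a split drawn at 50000 after the values were seen. These are called the higher and the lower ribosomal set. Summed FPKM of 7 acinar marker genes was 20.2 to 505 in delta cells, 0.122 to 69.4 in alpha cells and 0.0283 to 13.7 in beta cells. Endothelial markers summed to 2.96 to 6.17, 1.47 to 2.88 and 0.619 to 3.34 FPKM in the same order. Most of these sums was Esam, with means of 2.16, 1.71 and 3.79 FPKM in alpha, beta and delta cells. Pecam1, Cdh5, Plvap and Kdr also had their highest means in delta cells, at 0.322 FPKM or less. Of the 5 immune markers, Ptprc was listed at 0 in all but 1 beta and 1 delta sample, whereas Cd74 had means of 0.318, 0.0619 and 2.00 FPKM in alpha, beta and delta cells, and the list summed to at most 1.83, 2.79 and 8.64 FPKM. The 5 ductal markers summed to 25.4 to 172 FPKM in alpha, 8.56 to 24.7 in beta and 20.4 to 101 in delta cells. Among them, Sox9 (means of 0.00229, 0.00844 and 1.29 FPKM) and Muc1 (0.0528, 0.138 and 0.950) were higher in each delta sample than in any other sample, and Krt19 was listed at 0 in all delta samples. The part of these markers in the differences between cell types was not tested. Read depth could be worked out in 6 samples, where it was 7.6 M to 30.6 M reads, and is unknown in the other 9, so no limit of detection is given.

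Across cell types, limma's F-test called 4 of the 8 genes tested, namely Stim1, Atp2a2, Ryr3 and Itpr3. Of all genes tested, 16.0% were called. Stim1 and Ryr3 had their highest levels in delta cells, Itpr3 likewise, and Atp2a2 had its highest level in beta cells. Stim1, Atp2a2 and Ryr3 were called in each of the 15 fits that left out 1 sample, and Itpr3 in 7 of them. Ryr3 passed the limit of 1 FPKM through delta cells alone, the type in which it was high, and without it 3 of 7 genes were called. The plot of all values shows the sample spread behind these calls.

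**Figure D1:**
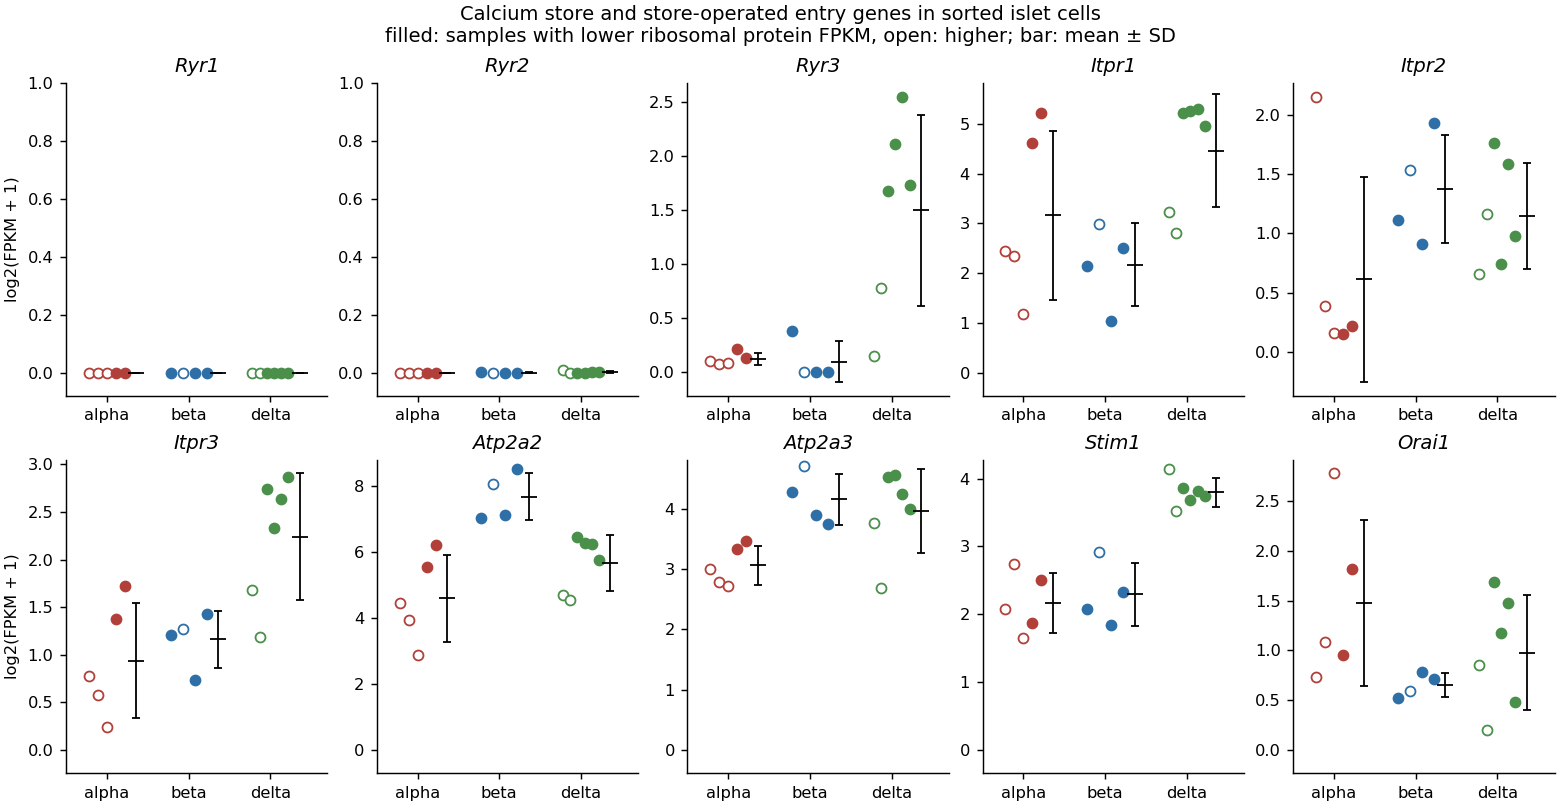
Level of each of the 10 genes in every sample, as log2(FPKM + 1) on the vertical axis, by cell type (alpha n = 5, beta n = 4, delta n = 6). Filled points are the 9 samples of the lower ribosomal set, open points the 6 of the higher set, and bars are mean ± SD. Stim1 sits higher in all 6 delta samples than in any other sample, Atp2a2 sits higher in all 4 beta samples, and Ryr1 lies at 0 throughout.

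Stim1, the calcium sensor of the store, had its highest level in delta cells and was called against alpha and against beta cells. It lies on the plus strand of chromosome 7 (102267806 to 102437319, GRCm38) and its longest annotated transcript has 4362 nt in 12 exons. RefSeq (GRCm38.p6) holds a promoter window for 7 of the 10 genes, from 250 bases before to 50 after the start. The windows of the 2 delta-high genes with an entry, Stim1 (chr7:102267569-102267868, plus strand) and Itpr3 (chr17:27057054-27057353, plus strand), are shown to set their base composition beside that of other genes. Capitals mark every match to GGGCGG on either strand.

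Stim1: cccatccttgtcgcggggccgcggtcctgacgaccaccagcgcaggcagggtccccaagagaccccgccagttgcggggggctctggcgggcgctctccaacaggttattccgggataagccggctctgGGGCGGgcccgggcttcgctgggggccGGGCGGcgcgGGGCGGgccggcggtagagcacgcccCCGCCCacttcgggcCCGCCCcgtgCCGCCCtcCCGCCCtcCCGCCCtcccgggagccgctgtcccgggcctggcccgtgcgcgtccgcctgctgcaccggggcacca

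Itpr3: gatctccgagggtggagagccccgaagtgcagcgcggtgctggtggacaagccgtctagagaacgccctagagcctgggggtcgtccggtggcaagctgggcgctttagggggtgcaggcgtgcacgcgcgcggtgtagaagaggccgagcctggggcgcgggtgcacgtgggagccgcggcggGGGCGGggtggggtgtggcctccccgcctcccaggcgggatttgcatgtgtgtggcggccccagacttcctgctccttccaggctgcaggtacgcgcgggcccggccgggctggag

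The Stim1 window holds 8 such matches and 38 CpG dinucleotides at 78.7% GC. The Itpr3 window holds 1 match and 30 CpG at 72.3% GC. GGGCGG is found on either strand in 35.7% of 32851 mouse promoter windows of the same length, whose median is 7 CpG and 52.7% GC. Neither window holds CCAAT, which is in 37.4% of windows, or TATAAA, which is in 13.6%. Among the other 5 windows, those of Orai1 (36), Itpr2 (26), Atp2a3 (25), Ryr2 (18) and Ryr1 (9) also hold more CpG than the median window. A match is a run of letters and no evidence that a factor binds there.

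Stim1 was at 3.21, 5.65, 2.14, 2.64 and 4.67 FPKM in alpha samples 1 to 5 and at 3.22, 6.56, 2.57 and 4.04 FPKM in beta samples 1 to 4. In delta cells it ranged from 10.5 to 16.7 FPKM with a median of 12.7. Every delta sample was above every alpha and beta sample, and alpha and beta cells overlapped. The means were 3.66 ± 1.46 (SD, n = 5), 4.10 ± 1.75 (SD, n = 4) and 13.0 ± 2.10 (SD, n = 6) FPKM in alpha, beta and delta cells. Delta cells thus had 3.55 times the mean FPKM of alpha cells and 3.18 times that of beta cells. In bulk samples such as these, fewer cells of a type and less RNA per cell cannot be told apart.

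On the log2(FPKM + 1) scale, Stim1 in delta cells exceeded that in alpha cells by 1.63 (SE 0.283, adjusted p = 0.00131, limma) and that in beta cells by 1.51 (SE 0.301, adjusted p = 0.00297, limma). Both calls held in all 15 fits that left out 1 sample. Between beta and alpha cells the difference was 0.13, with a 95% interval from -0.54 to 0.79. Within the lower ribosomal set, delta minus alpha was 1.59 (adjusted p = 0.0141) and delta minus beta 1.69 (adjusted p = 0.00274, limma). Within the 5 alpha and delta samples of the higher set, delta minus alpha was 1.69, with an adjusted p of 0.263. In delta samples 1 to 6 the acinar markers summed to 177, 130, 60.8, 505, 20.2 and 23.1 FPKM. Cela1, one of them, was at 17.9 FPKM or more in each delta sample and at most 10.2 in any other. Each of the other acinar markers overlapped between delta and alpha samples. Ctrb1, for example, was at 1.12 and 2.44 FPKM in delta samples 5 and 6 and at 33.0 FPKM in alpha sample 3. The part of the acinar markers in the Stim1, Itpr3 and Ryr3 differences was not tested.

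Orai1, the pore that STIM1 opens, was called in no comparison. Its gene (chromosome 5, 123015074 to 123030456, plus strand) has a longest transcript of 1875 nt in 2 exons, the shortest of the 10 genes. Orai1 was at 0.664, 1.13, 5.88, 0.932 and 2.52 FPKM in alpha samples and at 0.435, 0.507, 0.722 and 0.638 FPKM in beta samples. Delta samples ranged from 0.147 to 2.21 FPKM with a median of 1.04. The beta samples lay close together, and the values of alpha sample 3 and alpha sample 5 were the highest of all 15. All pairs of cell types overlapped.

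Mean Orai1 was 2.23 ± 2.17 (SD, n = 5) FPKM in alpha, 0.576 ± 0.129 (SD, n = 4) in beta and 1.10 ± 0.801 (SD, n = 6) in delta cells. The log2 difference was -0.82 between beta and alpha cells (adjusted p = 0.254, limma), with a 95% interval from -1.70 to 0.06. Delta and alpha cells differed by -0.50 (interval from -1.29 to 0.30) and delta and beta cells by 0.33 (interval from -0.52 to 1.17), the latter turning to -0.13 under quantile normalisation. Without alpha sample 3, beta minus alpha was -0.50 (adjusted p = 0.453) and delta minus alpha -0.17 (adjusted p = 0.925). In alpha sample 3, which held the highest Orai1, the immune markers summed to 0.615 FPKM, the lowest of the alpha samples, and the acinar markers to 69.4 FPKM, the highest.

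The other members of the STIM and ORAI families are named here after their values were seen, and none was called in the F-test (adjusted p = 0.547 for Stim2, 0.0902 for Orai2 and 0.132 for Orai3, limma). Stim2, a second store sensor, was at mean levels of 7.27 ± 2.37, 11.4 ± 4.95 and 9.77 ± 3.32 FPKM (SD) in alpha, beta and delta cells. Orai3 was the ORAI gene with the highest mean FPKM in each cell type, at 12.7 ± 5.93, 7.75 ± 5.52 and 17.9 ± 7.38 FPKM (SD) in the same order. Orai2 was at 0.916 ± 0.511, 1.03 ± 0.351 and 2.16 ± 0.594 FPKM (SD). The Stim1 mean was thus below the Stim2 mean in alpha and beta cells and above it in delta cells.

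The SERCA pumps, which fill the store, were led by Atp2a2 in every sample. Atp2a2 (chromosome 5, 122453513 to 122502225, minus strand, longest transcript 5674 nt in 21 exons) encodes the widely expressed pump. It was at 20.9, 14.2, 6.26, 45.6 and 72.4 FPKM in alpha samples and at 130, 266, 137 and 360 FPKM in beta samples. Delta samples ranged from 22.1 to 87.1 FPKM with a median of 63.2. All 4 beta samples were above all other samples, while alpha and delta cells overlapped.

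The mean level of Atp2a2 was 31.9 ± 27.0 (SD, n = 5) FPKM in alpha, 224 ± 111 (SD, n = 4) in beta and 56.1 ± 27.6 (SD, n = 6) in delta cells. Beta cells had 7.02 times the mean of alpha cells and 3.99 times that of delta cells. In beta minus alpha cells the log2 difference was 3.08 (SE 0.644, adjusted p = 0.00722, limma), called in all 15 fits that left out 1 sample. With the ribosomal set as a covariate it was 2.63 (adjusted p = 0.00432). Within the lower ribosomal set alone it was 1.68 (adjusted p = 0.0683, limma), and the alpha samples of that set, 4 and 5, held the highest alpha values. Delta cells were lower than beta cells by 2.02 on the log2 scale (SE 0.619, adjusted p = 0.0380, limma). That call was lost without beta sample 2 (adjusted p = 0.0666), beta sample 4 (0.126), delta sample 1 (0.0826), delta sample 2 (0.0744) or delta sample 6 (0.0559), and with no filter on low values (0.106). Between delta and alpha cells the difference was 1.06, with a 95% interval from -0.17 to 2.29, and it was 0.30 within the lower set (adjusted p = 0.879), 0.87 within the higher set (adjusted p = 0.551) and 0.63 to 1.46 without 1 sample.

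Atp2a3 (chromosome 11, 72961169 to 72993044, plus strand, longest transcript 4606 nt in 22 exons) encodes a further SERCA pump. It was at 7.04, 5.89, 5.58, 9.13 and 10.03 FPKM in alpha samples and at 18.4, 25.2, 14.0 and 12.4 FPKM in beta samples. In delta cells it ranged from 5.47 to 22.8 FPKM with a median of 16.5. Each beta sample was above each alpha sample, and delta cells overlapped with both, and delta sample 2 held the lowest value of all 15. The means were 7.53 ± 1.97 (SD, n = 5), 17.5 ± 5.73 (SD, n = 4) and 16.0 ± 6.51 (SD, n = 6) FPKM.

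No comparison of Atp2a3 was called. Beta minus alpha was 1.10 on the log2 scale (SE 0.393, adjusted p = 0.102, limma), and division by median-ratio size factors, another scaling between samples, moved it to 1.34 with an adjusted p of 0.0405, whereas within the lower ribosomal set it was 0.58 (adjusted p = 0.248). The difference between delta and alpha cells was 0.90 (adjusted p = 0.176, limma), which became 1.16 (adjusted p = 0.0307) without delta sample 2 and 0.39 (adjusted p = 0.759) within the higher set. Between delta and beta cells it was -0.19, with a 95% interval from -1.0 to 0.61, and it was 0.06 without delta sample 2 and 0.36 within the lower ribosomal set. Of the summed FPKM of both pumps, Atp2a2 held a median of 74.8% in alpha, 91.0% in beta and 78.7% in delta samples, with ranges of 52.9% to 87.8%, 87.6% to 96.7% and 66.6% to 80.5%.

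**Figure D2:**
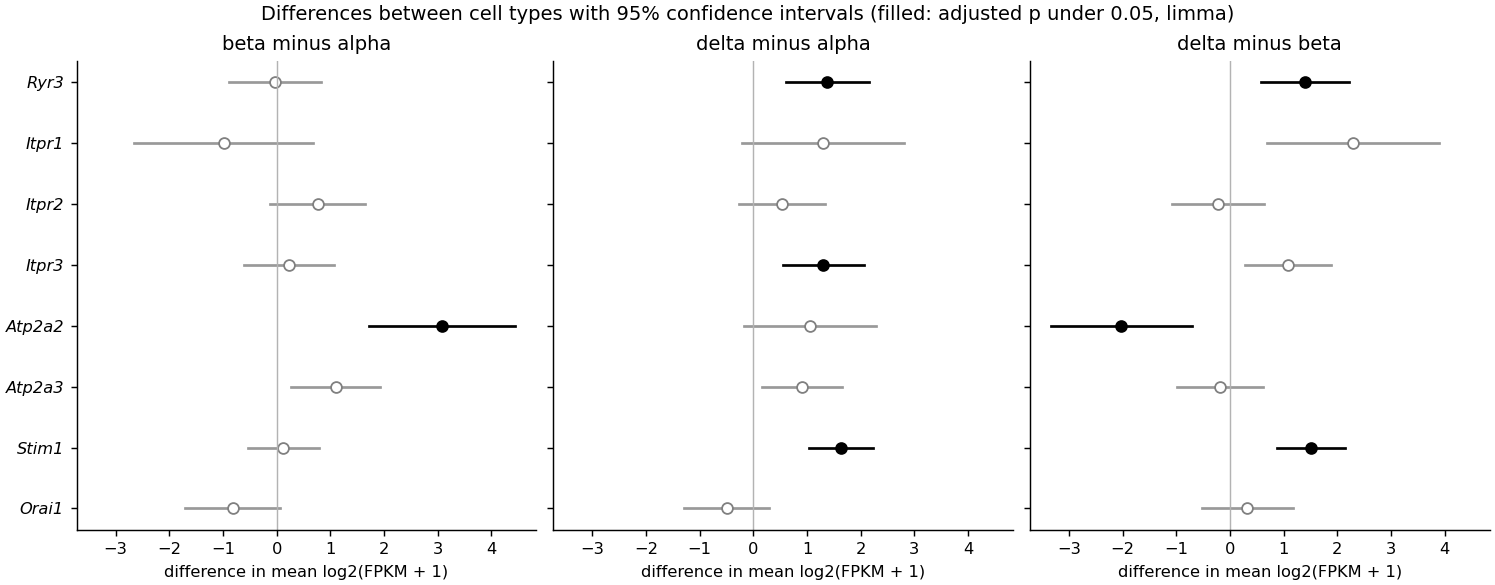
Difference in mean log2(FPKM + 1) between cell types for the 8 genes tested, with 95% confidence intervals from limma; filled points have an adjusted p under 0.05. Atp2a2 is the gene called in beta against alpha cells (3.08), Stim1, Ryr3 and Itpr3 are called in delta against alpha cells (1.63, 1.38 and 1.30), and Stim1, Ryr3 and Atp2a2 in delta against beta cells (1.51, 1.40 and -2.02). Ryr3 passed the limit of 1 FPKM through delta cells alone, so its points are a description.

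Among IP3 receptors, Itpr1 was the most abundant by FPKM in every sample. Itpr1 (chromosome 6, 108213096 to 108551109, plus strand, longest transcript 9870 nt in 62 exons) was at 4.43, 4.05, 1.25, 23.6 and 36.3 FPKM in alpha samples and at 3.43, 6.92, 1.05 and 4.67 FPKM in beta samples. Delta samples held from 6.00 to 38.1 FPKM with a median of 33.1. Alpha samples 4 and 5 reached the level of the delta cells, whereas alpha samples 1 to 3 lay with the beta cells. Delta samples 1 and 2, at 8.43 and 6.00 FPKM, stood below the other 4 delta samples.

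The high and low values of Itpr1 in alpha and delta cells followed the ribosomal sets. In alpha cells the lower ribosomal set had a mean of 29.9 FPKM (n = 2) and the higher set 3.25 (n = 3), a ratio of 9.21. In delta cells the means were 35.4 (n = 4) and 7.21 FPKM (n = 2), a ratio of 4.90. Beta cells did not show this, with a mean of 3.05 FPKM in the lower set (n = 3) and 6.92 in the 1 sample of the higher set.

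Pooled over the sets, Itpr1 was called in no comparison of the fit of all samples. The log2 difference between delta and beta cells was 2.29 (SE 0.756, adjusted p = 0.0529, limma), a ratio of means of 6.46. It passed the threshold with a filter of 5 FPKM (adjusted p = 0.0486), a pseudocount of 0.1 (0.0477) or the 2 cell types alone (0.0312). It also passed without alpha sample 3, 4 or 5 (adjusted p = 0.0349, 0.0478 and 0.0342), without beta sample 2 (0.0457) and without delta sample 1 or 2 (0.0478 and 0.0303). With the set as a covariate it was 2.43 (adjusted p = 0.00771, limma). Within the lower set, Itpr1 in delta cells exceeded that in beta cells by 3.28 (adjusted p = 0.00109, limma), and beta cells fell below alpha cells, with a difference of -3.02 (adjusted p = 0.00622, limma, 3 beta and 2 alpha samples). Over all samples the latter was -0.99 (adjusted p = 0.480), and with the set as a covariate -1.58 (adjusted p = 0.124), neither of them called. The difference between delta and alpha cells was 1.30 over all samples (95% interval from -0.20 to 2.81) and 0.26 within the lower set (adjusted p = 0.890), 1.04 within the higher set (adjusted p = 0.528) and 0.85 with the set as a covariate (adjusted p = 0.458).

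Itpr2 (chromosome 6, 146108299 to 146502223, minus strand, longest transcript 11679 nt in 56 exons) was low throughout. Alpha samples held 3.45, 0.308, 0.114, 0.111 and 0.159 FPKM, and beta samples 1.16, 1.90, 0.880 and 2.83 FPKM. Delta samples held from 0.575 to 2.39 FPKM with a median of 1.11. Apart from alpha sample 1, which held the highest value of all 15, each alpha sample was below each beta and delta sample. The mean of alpha cells, 0.828 ± 1.47 (SD, n = 5) FPKM, rests on that sample, and the means were 1.69 ± 0.871 (SD, n = 4) in beta and 1.31 ± 0.737 (SD, n = 6) in delta cells.

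No Itpr2 difference was called, and the adjusted p in the F-test was 0.387 (limma). The log2 differences were 0.76 between beta and alpha cells (95% interval from -0.13 to 1.65), 0.54 between delta and alpha cells (from -0.27 to 1.34) and -0.23 between delta and beta cells (from -1.08 to 0.63). Leaving out alpha sample 1 raised the first to 1.15 (adjusted p = 0.0575) and the second to 0.92 (adjusted p = 0.111), and the second was 0.01 within the higher ribosomal set, which holds that sample. Within the lower set, the first was 1.14 (adjusted p = 0.123) and the second 1.08 (adjusted p = 0.202, limma). The summed acinar marker FPKM of alpha sample 1 was 16.6 and its immune marker sum 0.930, both within the range of the other alpha samples.

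Itpr3 (chromosome 17, 27057304 to 27122223, plus strand, longest transcript 8990 nt in 58 exons) was highest in delta cells. It was at 0.712, 0.491, 0.180, 1.59 and 2.31 FPKM in alpha samples and at 1.31, 1.41, 0.668 and 1.70 FPKM in beta samples. In delta cells it ranged from 1.28 to 6.31 FPKM with a median of 4.64. The 4 delta samples of the lower ribosomal set, at 4.05 FPKM or more, were above all alpha and beta samples, and delta samples 1 and 2 overlapped with both. Mean levels were 1.06 ± 0.874 (SD, n = 5) FPKM in alpha, 1.27 ± 0.435 (SD, n = 4) in beta and 4.12 ± 2.01 (SD, n = 6) in delta cells.

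Delta cells had 3.91 times the mean Itpr3 of alpha cells, a log2 difference of 1.30 (SE 0.357, adjusted p = 0.0357, limma). It was called in 2 of 9 other settings, with a pseudocount of 0.1 (adjusted p = 0.0367) and with the ribosomal set as a covariate (1.08, adjusted p = 0.0240), and lost in the other 7, among them no filter (0.0828), size factors (0.0739) and quantile normalisation (0.0721). This call was also lost without alpha sample 1, 2 or 3 (adjusted p = 0.0835, 0.0896 and 0.103), without beta sample 1 (0.0502) and without delta sample 3, 4, 5 or 6 (0.0888, 0.0736, 0.0855 and 0.0830). Against beta cells the difference was 1.08 (SE 0.381, adjusted p = 0.0695, limma), which passed the threshold without delta sample 2 (adjusted p = 0.0243). Within the lower ribosomal set, Itpr3 in delta cells differed from alpha cells by 1.10 (adjusted p = 0.0846) and from beta cells by 1.52 (adjusted p = 0.00566, limma). Beta and alpha cells differed by 0.22, with a 95% interval from -0.62 to 1.06, and by -0.42 within the lower set. An antisense gene, Itpr3os, shares 233 exonic bases with Itpr3, and whether counting used the strand is not given in the sources used here; its mean was 0.282 FPKM or less in each cell type.

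**Figure D3:**
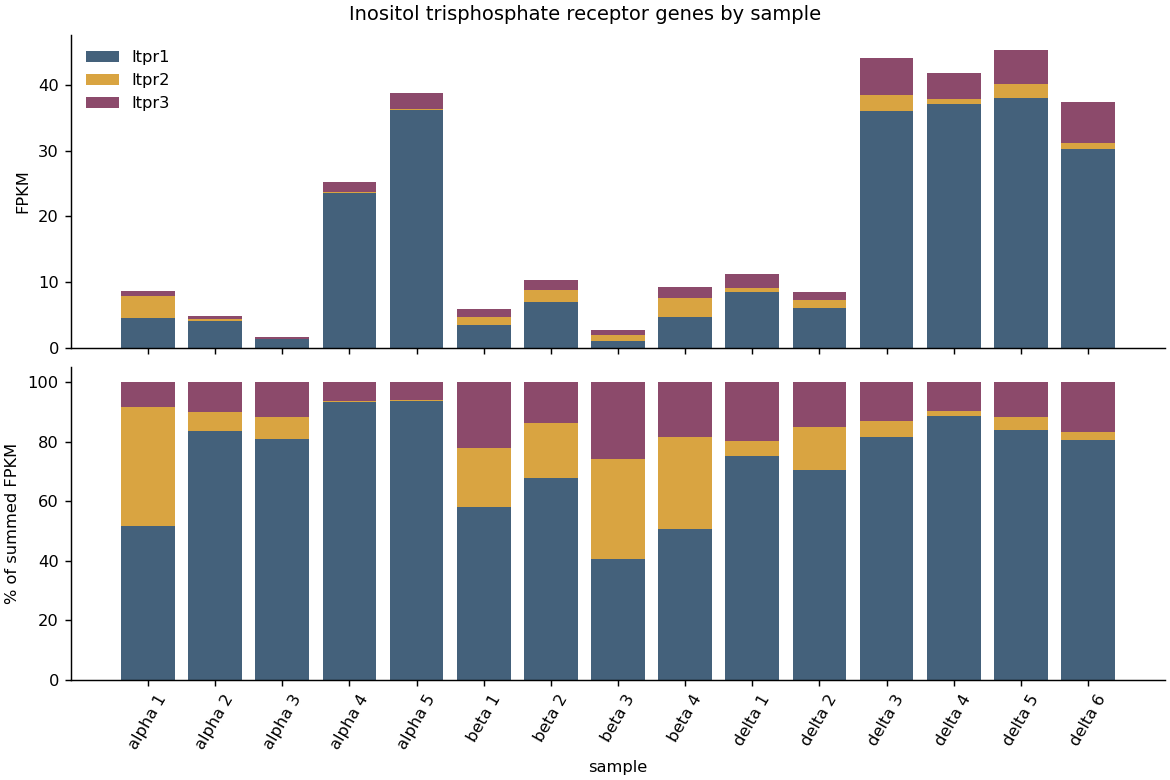
IP3 receptor genes in each of the 15 samples, as stacked FPKM in the top panel and as percent of their summed FPKM in the bottom panel. The sum is highest in alpha samples 4 and 5 and delta samples 3 to 6, and the Itpr1 share is lower in beta samples, with a median of 54.5%, than in alpha (83.6%) and delta samples (81.1%).

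The make-up of the IP3 receptor family can be read per length from FPKM. Itpr1 held a median of 83.6% of the summed FPKM in alpha samples (range 51.6% to 93.6%), 54.5% in beta samples (40.5% to 67.6%) and 81.1% in delta samples (70.4% to 88.7%). All delta samples were above all beta samples in this share. Itpr2 held medians of 6.34%, 25.2% and 4.78% and Itpr3 medians of 8.29%, 20.3% and 13.9% in alpha, beta and delta samples. The lowest Itpr1 share of an alpha sample belonged to alpha sample 1, in which Itpr2 held 40.1%. The summed FPKM of the family was 1.55 to 38.7 in alpha, 2.60 to 10.2 in beta and 8.52 to 45.3 in delta samples.

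Of the ryanodine receptors, Ryr1 and Ryr2 were at or near 0 FPKM in every sample. Ryr1 (chromosome 7, 29003344 to 29125179, minus strand), the receptor known from skeletal muscle, was listed at 0 in all 15 samples. Ryr2 (chromosome 13, 11553102 to 12106945, minus strand), the receptor known from heart muscle, was listed at 0 in every alpha sample. It was above 0 in 1 beta sample (0.00154 FPKM) and 3 delta samples, where it reached 0.00544 FPKM. A value of 0 in this table says only that it is listed so, since depth is unknown in most samples.

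Ryr3 (chromosome 2, 112631355 to 113217096, minus strand, longest transcript 15468 nt in 104 exons) was the ryanodine receptor with values above 1 FPKM, and it passed that level in delta cells. It was at 0.0735, 0.0484, 0.0571, 0.158 and 0.0902 FPKM in alpha samples. Beta sample 1 held 0.295 FPKM and the other 3 beta samples were listed at 0. In delta samples 1 to 6 it was at 0.103, 0.709, 2.19, 3.31, 4.82 and 2.31 FPKM. The 4 delta samples of the lower ribosomal set were above every other sample, and delta sample 1 overlapped with alpha and beta cells.

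The mean of Ryr3 was 2.24 ± 1.72 (SD, n = 6) FPKM in delta and 0.0855 ± 0.0437 (SD, n = 5) in alpha cells, a ratio of 26.2. Delta cells were higher than alpha cells by 1.38 on the log2(FPKM + 1) scale (SE 0.364, adjusted p = 0.0290, limma) and than beta cells by 1.40 (SE 0.388, adjusted p = 0.0228, limma). As it entered the test through delta cells alone, these calls are given as a description. With no filter on low values neither was called (adjusted p = 0.0721 and 0.0573), and with the replicate number as a block neither was (0.0754 and 0.0781). The first was not called under quantile normalisation (0.0568) or in a fit of the 2 cell types alone (0.0512). The first call was also lost without alpha sample 1, 2, 3 or 4 (adjusted p = 0.0616, 0.0605, 0.0603 and 0.0503) and without delta sample 3, 4, 5 or 6 (0.0625, 0.0724, 0.0665 and 0.0596). The second was lost without beta sample 4 (0.0623) or delta sample 4 (0.0511). Within the lower ribosomal set the differences were 1.84 (adjusted p = 0.00782) and 1.89 (adjusted p = 0.00188, limma), and within the 5 alpha and delta samples of the higher set the first was 0.37 (adjusted p = 0.517). Beta and alpha cells differed by -0.02, with a sign that changed with the scaling. Aven, a gene on the opposite strand, shares 916 of the 18977 exonic bases of Ryr3, and its means were 1.25, 1.69 and 1.71 FPKM in alpha, beta and delta cells; reads of the shared bases cannot be told apart without strand.

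Taking the 8 genes tested by comparison, beta against alpha cells called 1 higher (Atp2a2) and 0 lower, against 2.84% of all genes called higher and 4.82% called lower. By unadjusted p under 0.05, 2 of the 8 were higher, Atp2a2 and Atp2a3, and 0 lower, beside 22.9% of all genes in either direction. Delta against alpha cells called 3 higher and 0 lower, against 5.33% and 1.48% of all genes, and by unadjusted p under 0.05, 4 were higher, with Atp2a3 as the further gene, and 0 lower, beside 16.7%. Delta against beta cells called 2 higher and 1 lower, against 11.7% and 2.99% of all genes, and by unadjusted p 4 higher and 1 lower, beside 28.4%. The median log2 difference of the 8 genes was 0.17, 1.18 and 0.70 in these comparisons, beside -0.13, 0.13 and 0.30 for all genes tested. Without Ryr3 the calls were 1 higher, 2 higher, and 1 higher with 1 lower, and the medians 0.22, 1.06 and 0.33. Samples did not overlap for 2 of 8 genes in beta against alpha cells (8.12% of all genes), 1 of 8 in delta against alpha cells (6.64%) and 2 of 8 in delta against beta cells (14.9%). Median-ratio size factors moved the all-gene medians to 0.00, 0.00 and 0.02, and with them 52.7%, 67.9% and 51.5% of all calls were higher, against 37.0%, 78.3% and 79.6% without them. Quantile normalisation gave 48.1%, 61.4% and 53.1%. In beta against alpha cells the share also moved with single samples, to 20.8% without beta sample 2 and 60.1% without beta sample 3, with all-gene medians of -0.34 and 0.00. The directions of Stim1 and Itpr3 in delta cells, of Ryr3 in delta cells and of Atp2a2 in beta cells were the same under both scalings, but the calls of Itpr3 under both and of Ryr3 against alpha cells under quantile normalisation ended.

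The order of mean levels within a cell type differed between the types, but many neighbours in it were closer than the larger of their SDs. In alpha cells it ran Atp2a2, Itpr1, Atp2a3, Stim1, Orai1, Itpr3, Itpr2 and Ryr3, though Itpr1 (13.9 ± 15.3 FPKM, SD) was below Atp2a3 in alpha samples 1 to 3 and by the median (4.43 against 7.04 FPKM), and Itpr3 and Itpr2 were closer than their SDs. Orai1 in alpha cells (2.23 ± 2.17 FPKM, SD), with alpha sample 3 at 5.88 FPKM, was closer to Stim1 and Itpr3 than its SD. In beta cells it was Atp2a2, Atp2a3, Stim1, Itpr1, Itpr2, Itpr3, Orai1 and Ryr3. Stim1 and Itpr1 (4.10 and 4.02 FPKM) and Itpr2 and Itpr3 (1.69 and 1.27) were closer than their SDs. In delta cells it was Atp2a2, Itpr1, Atp2a3, Stim1, Itpr3, Ryr3, Itpr2 and Orai1. Itpr1, Atp2a3 and Stim1 (26.0, 16.0 and 13.0 FPKM) differed from their neighbours among the 3 by less than the larger SD. So did Itpr3, Ryr3, Itpr2 and Orai1 (4.12, 2.24, 1.31 and 1.10 FPKM). Stim1 was above Atp2a3 in delta samples 1 and 2.

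Most of these transcripts are long, and the ribosomal sets differed by transcript length. Averaged over cell types, the lower minus the higher ribosomal set had a median log2 difference of -0.31 over 14000 genes with an annotated length. For the 706 genes whose longest transcript exceeds 8000 nt it was 0.35, and 69.0% of them were above 0. For the 2106 genes between 1000 and 2000 nt it was -0.79, but for the 2533 genes of up to 1000 nt it was -0.17, so the difference did not rise with length throughout. All samples were amplified with the same kit, and whether anything in their handling differed between the sets is not given in the sources used here.

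Of the calcium store genes, Itpr1 (1.33), Atp2a2 (1.06), Itpr3 (0.70) and Ryr3 (0.59) were higher in the lower ribosomal set, at percentiles 97.0, 94.6, 89.1 and 86.7 of all genes. Atp2a3 (0.31), Orai1 (0.20) and Itpr2 (-0.19) lay nearer to 0. Stim1, at -0.29 and percentile 50.9, was close to the median gene. Differences between cell types with the set as a covariate, or within a set, are given above for part of the genes and comparisons, and beta cells have a single sample in the higher set. With the set as a covariate, Itpr3 in delta minus beta cells was 1.15 (adjusted p = 0.0113, limma). For Orai1, delta minus alpha was -0.56 with the covariate, -0.18 within the lower and -1.01 within the higher set, and none of these was called.

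**Figure D4:**
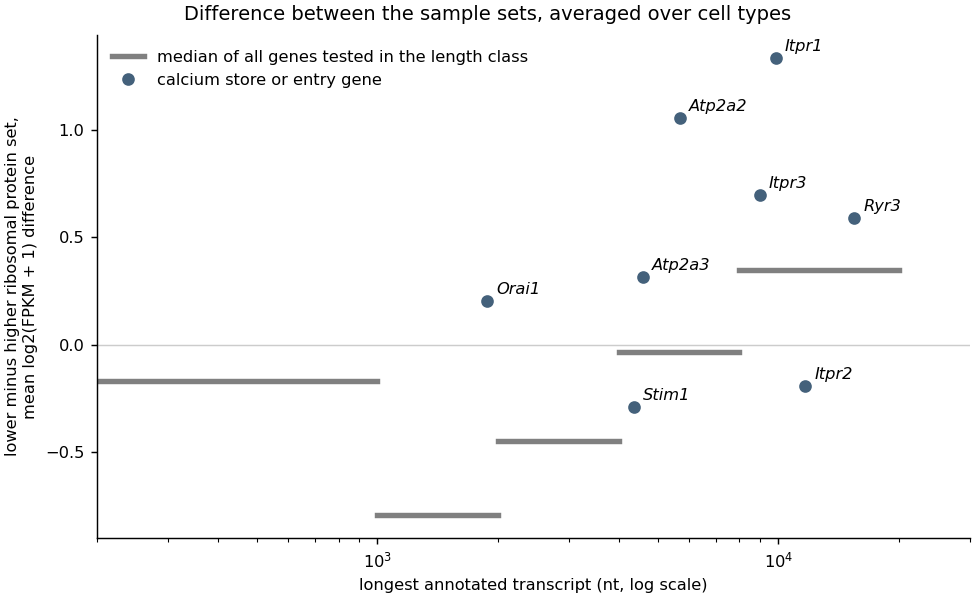
Lower minus higher ribosomal set, as difference in mean log2(FPKM + 1) averaged over cell types (vertical axis), against the longest annotated transcript in nt (log scale) for the 8 genes tested. Grey lines are the medians of all genes tested in each length class, at -0.17 up to 1000 nt, -0.79 between 1000 and 2000 nt and 0.35 above 8000 nt; Itpr1 (1.33) and Atp2a2 (1.06) lie above their classes and Stim1 (-0.29) below 0.

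For each gene called in the F-test, the genes most like it were taken by Pearson correlation of log2(FPKM + 1) over the 15 samples, as a description that mixes cell type and ribosomal set. For Stim1 they were Rab3b (r = 0.951), Slc2a1 (0.942) and Il17re (0.940). For Atp2a2 they were MIA3 (0.964), Ntrk2 (0.963) and Pclo (0.962). Itpr3 was closest to Lima1 (0.970) and Casz1 (0.956), and Ryr3 to Zfp804a (0.980), Itgb6 (0.971) and Itih5 (0.963).

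Of 90 further genes of calcium handling, 89 were in the table, 62 were tested and 14 were called by limma's F-test, beside 16.0% of all genes. In beta against alpha cells 5 were higher and 2 lower, in delta against alpha cells 8 higher and 0 lower, and in delta against beta cells 9 higher and 4 lower. The shares of all genes called higher and lower were 2.84% and 4.82%, 5.33% and 1.48%, and 11.7% and 2.99% in the same order. By unadjusted p under 0.05 the numbers were 12 and 9, 15 and 1, and 18 and 11, together 21, 16 and 29 of 62, beside the 22.9%, 16.7% and 28.4% of all genes. Of the 62, 9 passed the limit of 1 FPKM through 1 cell type alone, and 4 of these were called in the F-test. Without the 9, the F-test called 10 of 53, and the comparisons called 5 higher and 2 lower, 4 and 0, and 6 and 4. The median log2 differences were 0.08, 0.35 and 0.43 over the 62 genes and 0.11, 0.26 and 0.36 over the 53. By group, the F-test called 4 of 10 receptor partners, 3 of 13 buffers and leak proteins of the endoplasmic reticulum, 1 of 1 relative of the SERCA pumps, 2 of 9 partners of store-operated entry, 2 of 11 genes of IP3 production, 0 of 1 gene of the NAADP and cyclic ADP-ribose routes, 2 of 5 genes of extrusion at the plasma membrane and 0 of 12 genes of mitochondrial uptake. By unadjusted p under 0.05 in the F-test, 3 of the 12 mitochondrial genes and 0 of the 1 gene of the NAADP routes passed, beside 30.0% of all genes.

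**Figure D5:**
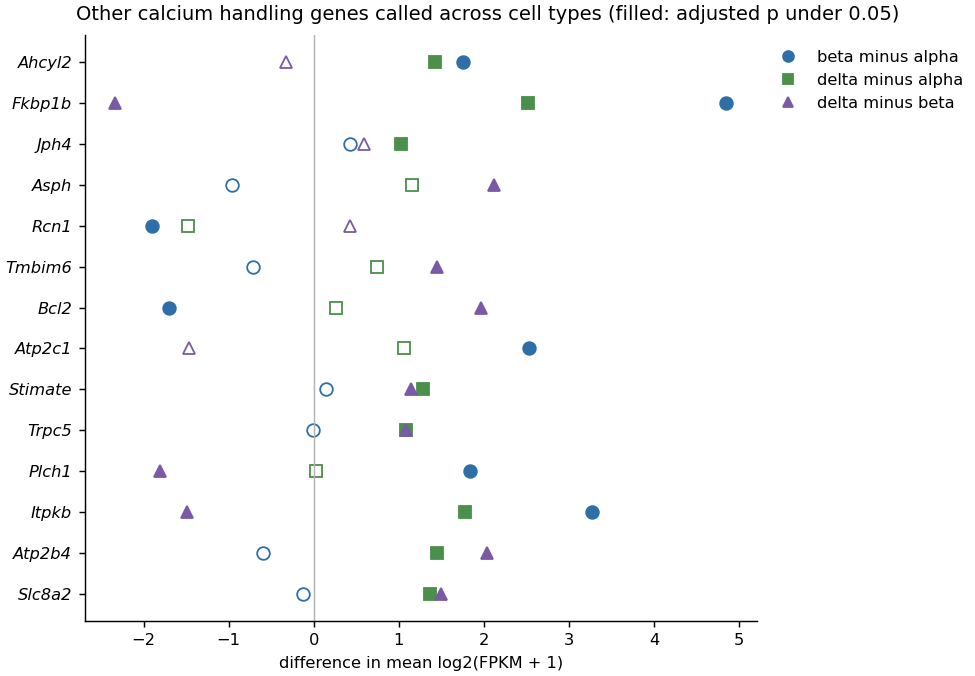
Difference in mean log2(FPKM + 1) between cell types (horizontal axis) for the 14 further calcium handling genes called in the F-test; circles are beta minus alpha, squares delta minus alpha and triangles delta minus beta, filled where the adjusted p was under 0.05. Fkbp1b lies furthest to the right in beta minus alpha (4.85) and furthest to the left in delta minus beta (-2.33). Jph4, Stimate, Trpc5 and Slc8a2 passed the limit of 1 FPKM through delta cells alone, so their points are a description.

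Fkbp1b, a protein that binds ryanodine receptors, had the largest difference of these genes. Its mean was 2.16 ± 2.87 (SD, n = 5) FPKM in alpha, 80.7 ± 60.5 (SD, n = 4) in beta and 13.8 ± 6.15 (SD, n = 6) in delta cells. Beta minus alpha was 4.85 (adjusted p = 3.0e-05, limma) and delta minus beta was -2.33 (adjusted p = 0.00763). The delta cells were in turn above the alpha cells by 2.52 (adjusted p = 0.00419, limma), though samples overlapped. These 3 calls held in all 15 fits that left out 1 sample and within the lower ribosomal set (differences of 5.16, -2.21 and 2.95). Fkbp1b was thus highest in beta and lowest in alpha cells, 2 types with similar mean Ryr3 (0.0737 and 0.0855 FPKM). Asph, whose locus also encodes the junctional proteins junctin and junctate, was at 24.6 ± 4.25, 14.8 ± 11 and 56.6 ± 12.7 FPKM (SD) in alpha, beta and delta cells and delta cells exceeded beta cells by 2.12 (adjusted p = 0.00258, limma). Ahcyl2, a relative of the IP3 receptor regulator Ahcyl1, was at 12.1 ± 6.47, 41.9 ± 16.6 and 31.4 ± 4.58 FPKM (SD). Beta minus alpha was 1.75 (adjusted p = 0.0121, limma), called in all 15 fits that left out 1 sample, and delta minus alpha was 1.43 (adjusted p = 0.0201, limma), a call lost without alpha sample 2, alpha sample 3 or delta sample 4, where the adjusted p reached 0.0625. Neither was called within the lower ribosomal set (1.42, adjusted p = 0.0514, and 1.21, adjusted p = 0.118).

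Of 11 genes that make and consume IP3, the F-test called Itpkb and Plch1, beside 16.0% of all genes. Itpkb, a kinase that phosphorylates IP3, was at 0.242 ± 0.219, 11.4 ± 4.53 and 3.58 ± 1.83 FPKM (SD) in alpha, beta and delta cells. No 2 cell types overlapped, and the differences were 3.27 in beta minus alpha, 1.78 in delta minus alpha and -1.49 in delta minus beta (adjusted p = 3.5e-05, 0.00309 and 0.0114, limma), each called in all 15 fits that left out 1 sample. Within the lower ribosomal set the last was -0.84 (adjusted p = 0.0522). Plch1, a phospholipase C, was at 1.60 ± 1.72, 8.10 ± 5.13 and 1.43 ± 1.12 FPKM (SD), with 1.84 in beta minus alpha and -1.81 in delta minus beta (adjusted p = 0.0421 and 0.0234, limma). The first of these was called in 5 of the 15 fits that left out 1 sample and was 0.78 within the lower ribosomal set (adjusted p = 0.517), and the second was lost without beta sample 1, beta sample 4 or delta sample 1 (adjusted p up to 0.0934) and within that set (0.101). Atp2c1, a calcium and manganese pump of the Golgi, was higher in beta cells by 2.53 than in alpha cells (adjusted p = 0.00786, limma), with means of 13.6 ± 3.97 and 105 ± 84.0 FPKM (SD), and by 2.31 within the lower ribosomal set (adjusted p = 0.0706).

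Of 5 genes of calcium export at the plasma membrane, Atp2b4 and Slc8a2 passed the F-test, beside 16.0% of all genes. Atp2b4, a plasma membrane calcium pump, was at 5.72 ± 3.31, 3.03 ± 0.324 and 17.5 ± 8.05 FPKM (SD) in alpha, beta and delta cells. It was higher in delta cells than in alpha cells by 1.44 (adjusted p = 0.0482), called in 2 of the 15 fits that left out 1 sample, and than in beta cells by 2.04 (adjusted p = 0.00548, limma), called in all 15. Slc8a2, a sodium/calcium exchanger, was at 0.158 ± 0.102, 0.0615 ± 0.0580 and 2.27 ± 1.36 FPKM (SD), and delta minus beta was 1.49. It passed the limit of 1 FPKM through delta cells alone, so this difference is given as a description. Bcl2, a survival protein also found on the endoplasmic reticulum, was lowest in beta cells, with beta minus alpha at -1.70 (adjusted p = 0.00698) and delta minus beta at 1.97 (adjusted p = 0.000952, limma). Rcn1, a calcium-binding protein of the endoplasmic reticulum, had means of 14.8 ± 3.34 and 4.20 ± 3.69 FPKM (SD) in alpha and beta cells, and beta minus alpha was -1.90 (adjusted p = 0.0249, limma), a call lost without alpha sample 1 or 2 or beta sample 1 or 3 (adjusted p up to 0.0890) and within the lower ribosomal set (0.119).

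Stimate, which encodes an activator of STIM1 and is named after its values were seen, was at 0.634 ± 0.596, 0.824 ± 0.748 and 2.88 ± 0.982 FPKM (SD) in alpha, beta and delta cells. It passed the limit of 1 FPKM through delta cells alone, so its values are given as a description. No delta sample overlapped with an alpha or beta sample, and the differences were 1.29 in delta minus alpha and 1.15 in delta minus beta.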

How the data were processed

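RNA of 5 alpha, 4 beta and 6 delta cell samples was amplified before sequencing (50 nt, single-end). The authors aligned the reads to GRCm38 and deposited FPKM per gene, 1 column per sample; their processing notes name TopHat2 2.0.8 and Cufflinks 2.2.1. The annotation release is not given in the sources used here. The read counts behind the study's edgeR comparison were not used here, so no count test was run.

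Values were tested with limma 3.58.1 in R 4.3.3 (lmFit, then eBayes with its trend option). The fit took log2(FPKM + 1) of all 15 samples, with a mean per cell type and no covariate, over 14405 genes with a mean above 1 FPKM in at least 1 cell type, and Benjamini-Hochberg adjustment. The fit was tested on simulated data. The 10 genes, the 90 further calcium handling genes and the marker lists were chosen with earlier results of these data known. All 10 genes are named; of the further genes, those called in the F-test, up to 4 per comparison and direction with the largest differences; Stim2, Orai2, Orai3 and Stimate were named after their values were seen. Alternatives were other filters, a pseudocount of 0.1, median-ratio size factors, quantile normalisation, the ribosomal set as a covariate, the replicate number as a block, fits of 2 cell types and leaving out each sample; the fits within ribosomal sets were added after the data were seen. Gene models are from GENCODE M21 and promoter windows from RefSeq (GRCm38.p6). Of the genes most like each gene called in the F-test, 1 is not reported here. Depth was read from steps of single reads in the low values of 5024 genes with 1 transcript. Other steps used Python 3.11.15, pandas 2.3.3 and matplotlib 3.10.9.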

Additional observations from a re-analysis of the deposited data

Results flagged for a closer look

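In 4 of 26 groups of samples of the 10 genes, 1 sample stood apart from the rest of its cell type by Dixon's test. In 2 of the 4, Ryr2 and Ryr3 in beta cells, the other samples were all listed at 0, so that any value above 0 stands apart. In the other 24 groups there were 2, where chance, at about 1 in 20 groups, gives 1.2. Itpr2 was at 3.45 FPKM in alpha sample 1, and no other alpha sample was above 0.308 FPKM. Ryr3 was at 0.295 FPKM in beta sample 1 and listed at 0 in the other 3 beta samples. Ryr2 was at 0.00154 FPKM in beta sample 1, again with the other 3 beta samples at 0. Ryr2 was at 0.00544 FPKM in delta sample 1 and at 0.00159 FPKM or less in the other 5 delta samples. With 10.5 M reads in delta sample 1 and a longest Ryr2 transcript of 16814 nt, that value is at the level of a single read.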

How the results depend on the processing

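Over the 8 genes and 3 comparisons, 179 of 212 values under other settings kept their direction and side of the threshold, 17 lost a call, 9 gained one and 7 changed sign. Leaving out 1 sample gave 323 of 360, 23, 8 and 6. The F-test called 4 of these genes, 2 with a filter of 5 FPKM (4 genes tested) or the replicate block, and 3 to 5 without 1 sample. Beta against alpha cells called 1, 2 with size factors, and 1 without any 1 sample. Delta against alpha cells called 3, but 1 with no filter, the 5 FPKM filter, quantile normalisation, the block or 2 cell types only, 0 within the 5 samples of the higher ribosomal set, and 1 to 4 without 1 sample. Delta against beta cells called 3, 1 with no filter, 5 with the set as a covariate or within the lower set, and 1 to 4 without 1 sample.

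Of the further genes, the F-test called 14, 8 with the 5 FPKM filter, 24 with size factors or quantile normalisation, and 11 to 20 without 1 sample. Beta against alpha cells called 7, then 15 with size factors, 17 with quantile normalisation, 3 with 2 cell types and 5 to 11 without 1 sample. Delta against alpha cells called 8, then 3 with the 5 FPKM filter, 4 with the block, 0 in the higher set and 4 to 9 without 1 sample. Delta against beta cells called 13, then 7 with the 5 FPKM filter, 22 with size factors, 24 with quantile normalisation, 21 with the set as a covariate and 8 to 19 without 1 sample. Counts over all genes moved too, in beta against alpha cells from 1104 to 2072 with size factors, 2056 with quantile normalisation and 520 with 2 cell types, in delta against beta cells from 2114 to 2676 and 2757 with these scalings and 2997 with the set as a covariate, and in the F-test from 2301 to 3179 and 3192 with the scalings. The cause of these shifts was not tested.

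None of the differences that changed sign was called. In beta against alpha cells Ryr3 was at 0.01 with size factors and 0.11 with the replicate block, and at -0.12 to 0.01 without 1 sample (0.01 without beta sample 2, 3 or 4). Itpr3 was at -0.07 with the set as a covariate and -0.42 in the lower set, and Stim1 at -0.10 in the lower set and -0.08 to 0.28 without 1 sample (-0.00 without alpha sample 3, -0.08 without beta sample 2). In delta against beta cells Atp2a3 was at 0.36 in the lower set and at -0.33 to 0.06 without 1 sample (0.06 without delta sample 2), and Orai1 at -0.13 with quantile normalisation. Only alpha and beta samples come from 1 mouse line and could share mice. Deviations of their same-numbered samples correlated at -0.0395, 0.271, -0.152 and 0.0731 across genes for numbers 1 to 4. These few pairs cannot decide whether mice are shared, and the numbers were not taken to pair samples. For delta cells, which come from another line, the replicate number has no known meaning across cell types. With the replicate block, the calls of Ryr3 (adjusted p = 0.0754 and 0.0781 in delta against alpha and beta cells) and Itpr3 (0.0678 in delta against alpha cells) were lost, and those of Stim1 and Atp2a2 were kept. Depth is unknown in 9 samples, so values near 0 FPKM have no stated error.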
